A study of Mus musculus with 7 samples.

Results

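The genes described here are 40 genes of mitosis and chromosome segregation, taken by symbol from a table of 48795 mouse gene identifiers. They cover the mitotic cyclins and kinases, the spindle checkpoint, the kinetochore, condensin, and the proteins of spindle assembly and cytokinesis. Kinesin motors were left out, apart from the kinetochore motor Cenpe. Bulk RNA sequencing was done on light zone germinal centre B cells sorted from spleen 10 days after mice received sheep red blood cells intravenously. The 3 MIZ1KO samples, whose titles read MizFF, and the 4 Control samples, whose titles read eYFP, were all given the same immunisation. MIZ1 is the zinc finger transcription factor encoded by Zbtb17, and the single comparison asks how transcripts of these cells differ when it is lost. The allele design, the agent that drives deletion, the age and sex of the mice and whether each library is one animal are not stated in the labels. The tests therefore reflect variation among libraries, part of which may be technical.

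Mitosis distributes duplicated chromosomes to daughter cells. Cdk1 with its cyclins starts it, condensin and topoisomerase compact and disentangle the chromosomes, kinetochores attach them to spindle microtubules, and the spindle checkpoint holds the anaphase promoting complex until every chromosome is attached. Germinal centre B cells are among the fastest dividing cells of the mammal. They receive T cell help in the light zone and divide mainly in the dark zone, so mitotic transcripts are high in dark zone cells and lower, though present, in light zone cells. Transcripts of these genes accumulate late in the cell cycle, through promoters that often hold a CHR element (cell cycle genes homology region) read by the MuvB core with B-MYB and FOXM1, and CCAAT boxes read by NF-Y.

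The promoter letters of the genes are given first, because CHR and CCAAT letters were common, though not universal, among the members, and the rule that chose them did not use these letters. RefSeq promoter windows on GRCm38.p6, running from 250 bases before to 50 bases after each start, matched 34 of the 40 genes; Aurkb, Ccna2, Incenp, Smc4, Spc24 and Tpx2 had no entry in the table used. The CHR letters TTTGAA, searched on both strands, lay in the windows of 24 of the 34 (70.6%), against 20.2% of all 27025 genes with a window. In 23 of the 34 a match lay between 100 bases before and 50 bases after the start, against 9.23% of all genes. CCAAT letters, on both strands, lay in 26 (76.5%), against 41.1% of all genes, and both motifs in 22, against 8.97% of all genes. The E-box CACGTG, the letters MYC with MAX binds, lay in 3 (8.82%), close to the 8.09% of all genes. A match of letters is a description and not a shown binding site.

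The following windows of 30 bases hold the CHR letters nearest to the start, in capitals, for 8 genes from 7 of the roles that the results turn on. TTCAAA is the same element on the other strand, and positions count from the start base as 0.
Plk1 (chr7:122159453-122159482, + strand, CHR letters at 30): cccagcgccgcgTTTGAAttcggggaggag
Ccnb2 (chr9:70421533-70421562, - strand, at 4): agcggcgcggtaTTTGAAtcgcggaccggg
Espl1 (chr15:102296254-102296283, + strand, at -27): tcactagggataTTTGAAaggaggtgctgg
Ncapd2 (chr6:125191692-125191721, - strand, at -123): cagccgttgaggTTTGAAcagggaattgcg
Top2a (chr11:99024195-99024224, - strand, at -23): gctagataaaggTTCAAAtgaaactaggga
Hmmr (chr11:40733412-40733441, - strand, at 8): agttgaggtaaaTTTGAAttcaggcgagct
Ttk (chr9:83834684-83834713, + strand, at 7): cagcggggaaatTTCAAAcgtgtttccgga
Cenpa (chr5:30666890-30666919, + strand, at 16): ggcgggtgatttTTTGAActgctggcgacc

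Longer windows show how the motifs sit together, with both CHR and CCAAT letters (ATTGG on the other strand) in capitals in the 150 bases before the start.
Cdc20 (chr4:118437344-118437493, - strand): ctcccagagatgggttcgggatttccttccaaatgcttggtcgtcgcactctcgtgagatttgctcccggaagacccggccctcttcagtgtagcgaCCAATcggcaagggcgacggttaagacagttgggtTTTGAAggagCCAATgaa
Ube2c (chr2:164769779-164769928, + strand): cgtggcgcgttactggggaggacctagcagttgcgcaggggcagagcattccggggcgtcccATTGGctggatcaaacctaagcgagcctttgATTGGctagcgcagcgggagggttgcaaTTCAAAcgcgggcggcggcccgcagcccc
Mki67 (chr7:135716380-135716529, - strand): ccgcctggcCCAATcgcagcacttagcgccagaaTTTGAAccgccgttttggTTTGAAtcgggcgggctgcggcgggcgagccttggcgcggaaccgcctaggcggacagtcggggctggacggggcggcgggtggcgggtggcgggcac

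**Figure D1:**
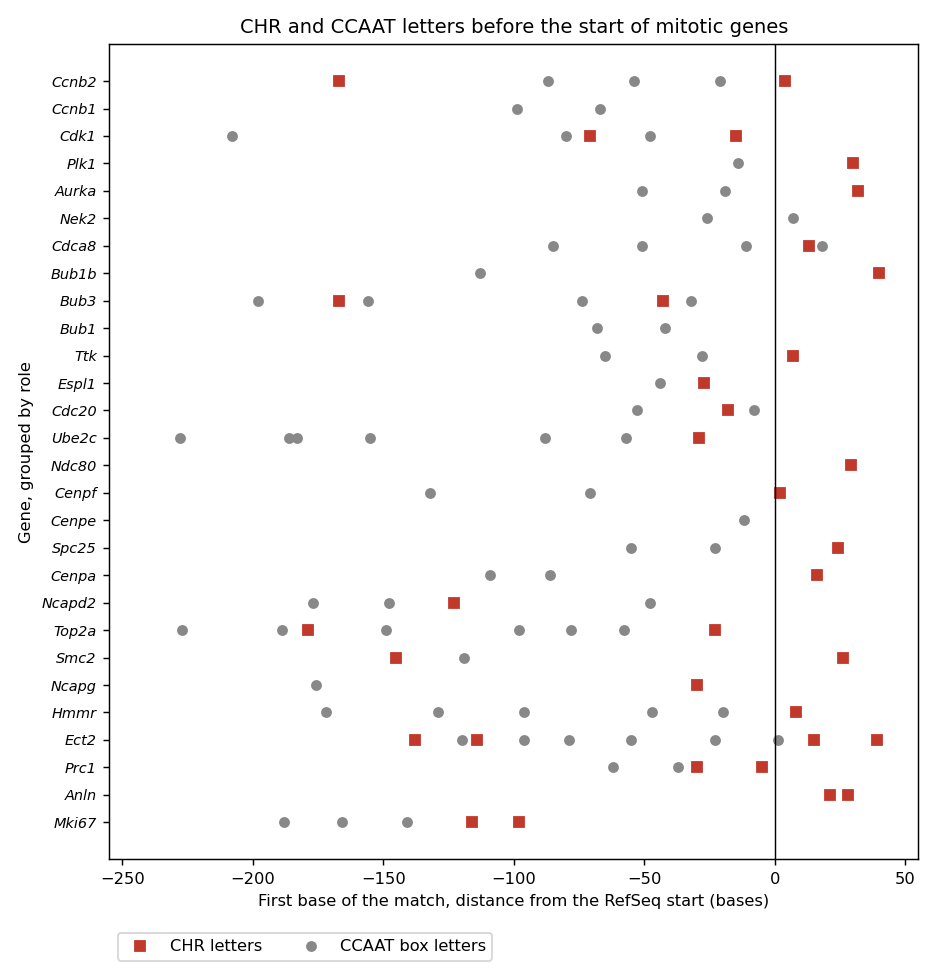
Distance of each CHR match (squares) and CCAAT match (circles) from the RefSeq start, in bases, for the 28 genes with at least 1 match; the vertical line is the start. CHR letters cluster within 100 bases before and 50 bases after the start, and CCAAT letters lie mostly upstream of them.

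Libraries held from 6896673 to 9482453 estimated counts, of which 3087992 to 5085019 lay outside ribosomal RNA. Zbtb17 measured 4.45 ± 0.732 CPM (reads per gene after scaling every library to one size) over the 3 MIZ1KO libraries and 4.18 ± 1.89 CPM over the 4 Control libraries (SD). That count covers the whole gene, so it does not check the genotype labels. The libraries differed in the share of models of the annotation class TEC, mostly unspliced single-exon models, used here as an index of nuclear RNA. These models made up 0.690% ± 0.204 (SD) of non-ribosomal counts in MIZ1KO and 1.79% ± 0.651 in Control, with no overlap. Whether that share measures nuclear RNA was not tested. Of 10 germinal centre B cell markers, all were tested and Cd79a alone was called, higher in MIZ1KO by 0.86 (adjusted p = 0.0333, edgeR). That call ended with the TEC share as a covariate (0.282), with the replicate block (0.0733) and without MIZ1KO replicate 1 or 3 or Control replicate 2 or 4 (0.0946 to 0.129). The summed level of the 10 markers ran from 2876 to 3018 CPM in MIZ1KO and from 2429 to 3138 CPM in Control. At an unadjusted p under 0.05, 3 were higher and 1 lower, against 9.92% and 14.7% of all genes. Every MIZ1KO library lay above every Control library in 3 (Cd79a, Mef2b and Bcl6), against 8.74% of all genes. Fas alone lay below, at 24.4 to 25.7 CPM in MIZ1KO and 26.5 to 47.5 CPM in Control, against 10.8% of all genes. Light zone markers summed to 1186 to 1333 CPM in MIZ1KO and 1185 to 1414 CPM in Control, with 0 of 12 called by edgeR and 3 at an unadjusted p under 0.05, 1 higher and 2 lower. Although the sums overlapped, 1 of the 12 had every MIZ1KO library above Control and 2 below, against 8.74% and 10.8% of all genes. Nfkbia lay above. Cd86 lay below, at 102.2 to 148.5 CPM in MIZ1KO and 163.7 to 196 CPM in Control. Slamf1 also lay below, at 82.2 to 136.6 CPM in MIZ1KO and 152.3 to 211.2 CPM in Control. Follicular B cell markers lay higher in each MIZ1KO library (352 to 424 CPM, against 298 to 346 CPM in Control), with 0 of 6 called and 2 higher at an unadjusted p under 0.05. T cell markers summed to 42.1 to 49.2 CPM in MIZ1KO and 26.0 to 32.8 CPM in Control, mostly Lck, the 1 of 8 that was tested. Among those too low to test, Cd3e had 0.645, 3.10 and 8.37 CPM in MIZ1KO and 0, 0.156, 0 and 0.401 CPM in Control, and Trac 0.215, 1.299 and 2.90 CPM in MIZ1KO and 0.131, 0.156, 0 and 0 CPM in Control, neither overlapping. Cd3g was at 0 in MIZ1KO replicate 1 and in every Control library. Plasma cell, myeloid and erythroid markers overlapped between the groups, at 230 to 423, 5.91 to 29.7 and 61.0 to 489 CPM in MIZ1KO and 270 to 602, 8.92 to 12.8 and 115 to 426 CPM in Control. Klf1, which defines erythroid precursors, was at 0 in all libraries but Control replicate 4. The part of these markers in the results below was not tested.

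All 40 genes passed the filter on low counts, and none passed an adjusted p of 0.05 in edgeR's quasi-likelihood test, where 5.96% of all 11618 genes tested were called, 1.9% higher and 4.05% lower in MIZ1KO. At an unadjusted p under 0.05, 10 were higher (25%) and 2 lower (5%), against 9.92% and 14.7% of all genes. DESeq2 called Plk1 higher and Cenpa lower, 2.5% of the 40 in each direction, against 3.64% of all genes higher and 6% lower in that fit, and limma called 0 both on the counts with voom and on the deposited log2 values. Of the 40 fitted log2 fold changes of MIZ1KO over Control, 29 lay above 0 (72.5%, against 47.7% of all genes). Their median was 0.26 and that of all genes was -0.03, and they ran from -0.75 for Cenpa to 0.93 for Plk1. Every MIZ1KO library lay above every Control library in 11 genes (27.5%, against 8.74% of all genes), and below in Cenpa alone (2.5%, against 10.8%). Set against the 6301 protein-coding genes with a mean of at least 10 CPM, the class closest to the members, the figures were 13.6% higher and 10.8% lower at an unadjusted p under 0.05, 54.1% above 0 with a median of 0.04, and 12.3% above and 8.62% below without overlap.

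The 11 genes whose MIZ1KO libraries all lay above the Control libraries were Ccnb1, Cdca8, Aurkb, Espl1, Cdc20, Ube2c, Ncapd2, Top2a, Smc4, Ncaph and Tpx2, which span 5 of the 10 roles. In bulk RNA, more cells in mitosis and more mitotic RNA per cell cannot be told apart, and neither was tested. Summed over the 40 genes, the level was 4932, 4330 and 4538 CPM in MIZ1KO replicates 1, 2 and 3, against 3374, 3475, 3812 and 3633 CPM in Control replicates 1 to 4. The sums did not overlap, but Mki67 alone made up 38.9% ± 6.20 of the sum in MIZ1KO and 31.8% ± 6.56 in Control. Without Mki67 the sums were 2906, 2949 and 2554 CPM in MIZ1KO and 2569, 2460, 2342 and 2344 CPM in Control, so that MIZ1KO replicate 3 lay just below Control replicate 1. The genes did not follow a single order of libraries: MIZ1KO replicate 1 was the highest library for 16 genes and Control replicate 1 for 9, while Control replicates 3 and 4 were the lowest for 10 and 9.

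**Figure D2:**
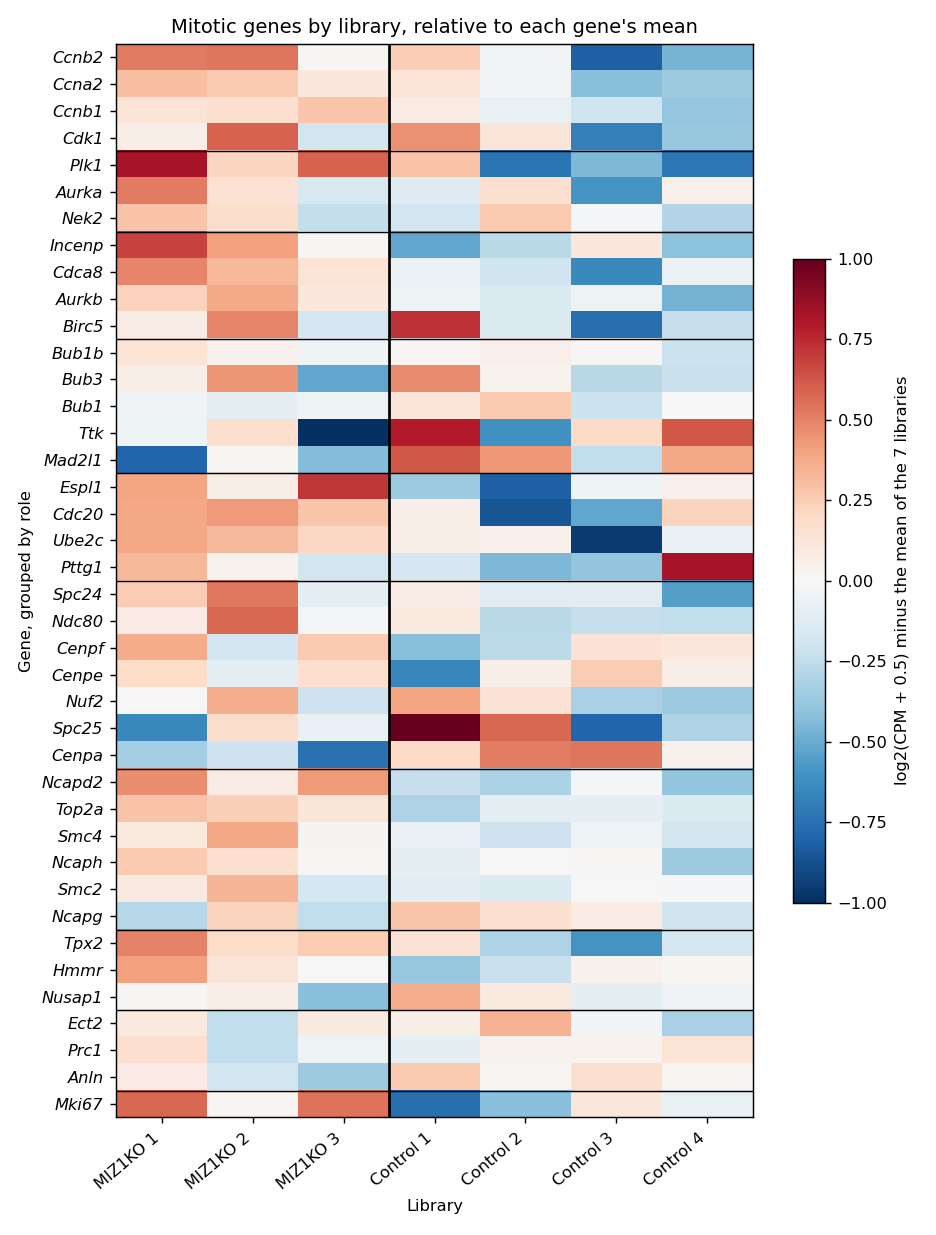
Each row is 1 of the 40 genes, grouped by role, and each column a library, 3 MIZ1KO to the left of 4 Control; colour is log2(CPM + 0.5) minus the gene's mean over the 7 libraries. Most rows are warmer on the left, as 29 of 40 fitted changes lay above 0, whereas Cenpa and Mad2l1 run the other way.

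The excess of positive values changed with how RNA composition was handled. With the log2 TEC share as a covariate, the median of the 40 genes was -0.02 with 18 above 0, and 1 gene, Mki67, was called higher, where 0.405% of all genes were called higher and 2.15% lower; since that share did not overlap between the groups, it cannot be told apart from genotype. GC content moved with the comparison across the whole table, so the genes were also read within GC classes. Among the protein-coding genes of at least 10 CPM, the median log2 fold change was 0.22 for the 3766 with a GC content above 46.3% and -0.18 for the 2531 at or below it, 46.3% being the median of the 40 genes. The 20 mitotic genes above that value had a median of 0.46 with 19 above 0, and the 20 at or below it a median of 0.04 with 10 above 0. In both classes the mitotic genes thus had a higher median than the protein-coding genes of the same class, of which 70.4% and 29.9% were above 0. Within a class GC content was not matched. All MIZ1KO libraries exceeded all Control libraries in 40% of the mitotic genes of high GC content (18.6% of all in that class) and in 15% of those of low GC content (2.84%). A fit with offsets for GC content and length moved the median of all genes from -0.03 to 0.09 and that of the mitotic genes from 0.26 to 0.38, with 35 of 40 above 0; over all genes it called 191 higher (1.65%) and 124 lower (1.07%), against 221 and 471. That fit called 6 genes higher and 0 lower: Ccnb2, Top2a, Mki67, Hmmr, Smc2 and Smc4.

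**Figure D3:**
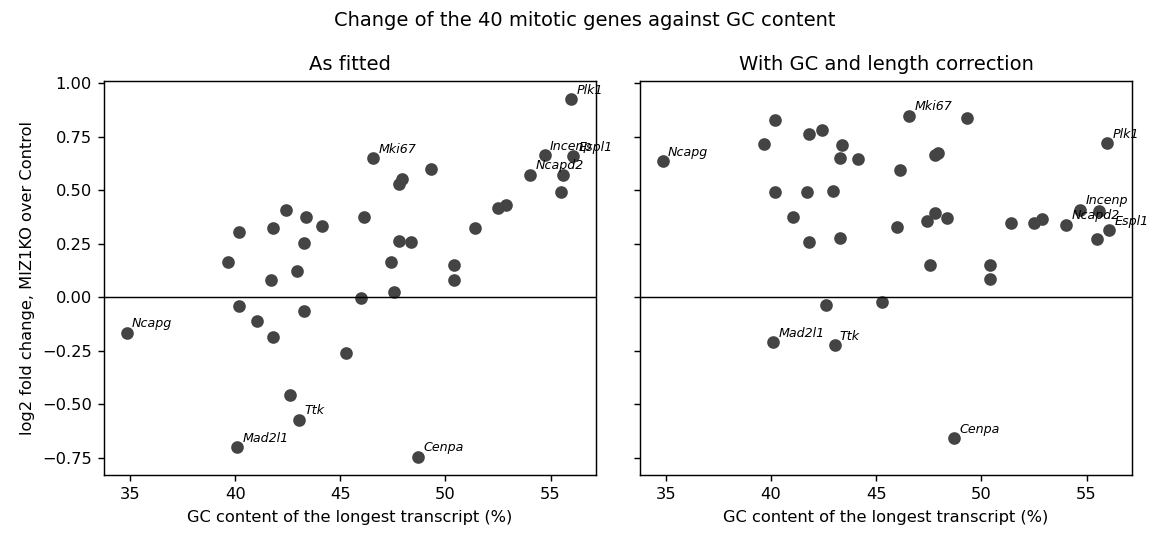
Log2 fold change of MIZ1KO over Control against the GC content of the longest annotated transcript for the 40 genes, as fitted (left) and with offsets for GC content and length (right). On the left 19 of the 20 genes above 46.3% GC lie above 0 and 10 of the 20 others; on the right Ncapg, at the far left, lies at 0.64 and Cenpa is the lowest at -0.66.

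The mitotic cyclins and Cdk1 all measured above 0 as fitted, with a median of 0.35, whereas with the TEC share as a covariate 3 of the 4 lay below 0: Ccnb2 at -0.42, Ccna2 at -0.15 and Cdk1 at -0.80. Ccnb2, a B-type cyclin that activates Cdk1, stood at 50.3, 50.9 and 35.2 CPM in MIZ1KO and at 41.6, 34.4, 19.7 and 25.3 CPM in Control. The groups overlapped through MIZ1KO replicate 3 and Control replicate 1, and the log2 fold change was 0.60 ± 0.26 (SE; edgeR, adjusted p = 0.163). Ccna2, the cyclin of S phase and mitotic entry, had 136, 132 and 118 CPM in MIZ1KO and 121, 108, 82.2 and 86.0 CPM in Control, a change of 0.37 ± 0.20 (adjusted p = 0.252, edgeR). Only MIZ1KO replicate 3 and Control replicate 1 broke the separation. Ccnb1 measured 0.33 ± 0.21 and Cdk1, the kinase itself, 0.26 ± 0.28. The annotation holds processed pseudogenes of Ccnb1 and Ccnb2, and how their shared reads were divided is not known here.

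Of the mitotic kinases, Plk1, which drives centrosome maturation, spindle assembly and the opening of chromosome arms, had the largest positive value of the 40 genes. Its levels were 38.6, 25.1 and 32.7 CPM in MIZ1KO replicates 1, 2 and 3, against 26.4, 12.8, 15.6 and 12.8 CPM in Control. Control replicate 1 lay just above the lowest MIZ1KO library, and the other 3 Control libraries lay below all MIZ1KO libraries. Plk1 (ENSMUSG00000030867, chromosome 7 from 122159439 to 122169873, GRCm38, overlapping the model Gm44985) averaged 32.1 ± 6.77 CPM over MIZ1KO libraries and 16.9 ± 6.45 CPM over Control libraries (SD). The log2 fold change was 0.93 ± 0.29 (SE; adjusted p = 0.0638, edgeR), outside the threshold. It passed without Control replicate 1 (1.22, adjusted p = 0.00891), without MIZ1KO replicate 2 (1.15, 0.0477) and with ribosomal RNA genes left out (0.97, 0.0485; 2.56% of all genes were called higher and 3.64% lower in that fit), and it measured 0.27 with the TEC share as a covariate. Aurka, the spindle pole kinase, had 15.3, 11.7 and 9.33 CPM in MIZ1KO and 9.58, 11.8, 6.82 and 10.9 CPM in Control, a change of 0.32 ± 0.33 within the spread of the libraries. Nek2, a centrosome kinase, measured 0.15 ± 0.24. With the TEC share as a covariate Aurka and Nek2 turned to -0.22 and -0.03.

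The 4 subunits of the chromosomal passenger complex, which corrects faulty attachments and later directs cytokinesis, all measured above 0, with a median of 0.48. Incenp, its scaffold (ENSMUSG00000024660, chromosome 19 from 9872296 to 9899551), had 75.8, 62.9 and 47.6 CPM in MIZ1KO and 32.7, 39.1, 50.7 and 35.3 CPM in Control. MIZ1KO replicate 3 lay below Control replicate 3, and the change was 0.66 ± 0.23 (adjusted p = 0.0857, edgeR), which passed without Control replicate 3 (0.85, adjusted p = 0.0458). Cdca8, or borealin, did not overlap: it had 69.9, 62.5 and 54.5 CPM in MIZ1KO and 47.7, 43.3, 31.6 and 47.6 CPM in Control, a change of 0.55 ± 0.21 (adjusted p = 0.123, edgeR). Aurkb, the kinase subunit, measured 0.42 ± 0.20 with no overlap, and Birc5, or survivin, 0.16 ± 0.28 (-1.05 with the TEC share as a covariate) with levels from 34.1 to 95.9 CPM within Control alone. The subunits of 1 complex were thus separated between the groups to different degrees, although no pair of them was tested against each other.

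The spindle checkpoint genes had a median of -0.11 as fitted with 2 of 5 above 0, a median of 0.09 with 3 above 0 with the GC and length offsets, and a median of -0.90 with 0 above 0 with the TEC share. Mad2l1, the checkpoint protein that sequesters Cdc20 (ENSMUSG00000029910, chromosome 6 from 66535390 to 66547220), had 52.9, 93.0 and 67.9 CPM in MIZ1KO and 142, 124, 77.4 and 120 CPM in Control. MIZ1KO replicate 2 overlapped Control replicate 3, and the change was -0.70 ± 0.24 (adjusted p = 0.0861, edgeR). Without Control replicate 3 it passed, at -0.81 (adjusted p = 0.0421), while with the GC and length offsets it was -0.21 (adjusted p = 0.652). Ttk, the Mps1 kinase that recruits the checkpoint, had 18.6, 21.6 and 8.53 CPM in MIZ1KO and 33.6, 12.4, 22.1 and 29.9 CPM in Control, a change of -0.57 ± 0.34 with wide overlap. The other 3, Bub1, Bub1b and Bub3, lay between -0.11 and 0.08, each within its error.

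Of the genes that end mitosis, 3 of 4 were separated between the groups with MIZ1KO above, against 8.74% of all genes and 12.3% of the protein-coding genes of at least 10 CPM. Espl1, or separase, which cuts cohesin, had 20.7, 16.5 and 26.1 CPM in MIZ1KO and 12.1, 8.71, 15.2 and 16.2 CPM in Control, a change of 0.66 ± 0.29 (adjusted p = 0.176, edgeR). It was the lowest of the 40 genes per length, at 1.89 CPM per kilobase of exon. Cdc20, the activator of the anaphase promoting complex that the checkpoint holds back, had 35.3, 36.3 and 32.5 CPM in MIZ1KO and 27.9, 14.6, 18.5 and 31.4 CPM in Control, a change of 0.57 ± 0.27 (adjusted p = 0.191, edgeR). Its gene overlaps Elovl1. Ube2c, the ubiquitin-conjugating enzyme of that complex, measured 0.49 ± 0.23, whereas Pttg1, or securin, the inhibitor of separase, measured 0.00 ± 0.38 on levels of 6.07 to 15.3 CPM. With the GC and length offsets Espl1, Cdc20 and Ube2c measured 0.31, 0.40 and 0.27, and with the TEC share 1.23, 0.25 and -0.17.

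Among the kinetochore genes Cenpa stood apart as the only one of the 40 with every MIZ1KO library below every Control library. Cenpa encodes the histone H3 variant that marks the centromere (ENSMUSG00000029177, chromosome 5 from 30666777 to 30674830, with no overlapping gene model). It had 37.5, 41.2 and 28.2 CPM in MIZ1KO, against 54.7, 67.8, 69.2 and 49.0 CPM in Control. Its means were 35.6 ± 6.71 CPM over MIZ1KO libraries and 60.2 ± 9.90 CPM over Control libraries (SD), a change of -0.75 ± 0.22 (SE; adjusted p = 0.0558, edgeR). The value was negative in all 19 alternatives, between -0.84 and -0.47, and passed in 2 of them: DESeq2 (adjusted p = 0.0321) and without Control replicate 1 (adjusted p = 0.0310). With the TEC share as a covariate it was -0.74 (adjusted p = 0.316, edgeR). The outer kinetochore NDC80 complex, which grips microtubules, was mixed: Spc24 had 31.2, 37.8 and 24.5 CPM in MIZ1KO and 27.4, 24.1, 24.2 and 17.6 CPM in Control (0.43 ± 0.25), Ndc80 measured 0.41 ± 0.24, Nuf2 0.08 ± 0.24 and Spc25 -0.45 ± 0.40. The large corona proteins Cenpf and Cenpe measured 0.25 ± 0.21 and 0.12 ± 0.22. None of these 6 genes separated the groups. With the TEC share Nuf2 turned to -0.67 and Spc24 to -0.01, and the median of the 7 kinetochore genes, 0.12 as fitted, was -0.01.

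Of the condensin and topoisomerase genes, 4 of 6 had every MIZ1KO library above Control (8.74% of all genes, 12.3% of the protein-coding genes of at least 10 CPM), and the median was 0.28. Ncapd2, a HEAT-repeat subunit of condensin I (ENSMUSG00000038252, chromosome 6 from 125168007 to 125191701, overlapping Gm28967 and Scarna10), had 87.9, 67.2 and 85.7 CPM in MIZ1KO and 54.0, 50.9, 62.7 and 48.2 CPM in Control. Its change was 0.57 ± 0.20 (adjusted p = 0.0892, edgeR). Top2a, the topoisomerase that disentangles sister chromatids, had 476, 461 and 424 CPM in MIZ1KO and 315, 366, 366 and 355 CPM in Control, a change of 0.37 ± 0.21 (adjusted p = 0.273, edgeR). Its means were 454 ± 26.6 CPM in MIZ1KO and 351 ± 24.0 CPM in Control. Smc4 and Smc2, the ATPase pair of condensin, measured 0.30 ± 0.20 and 0.16 ± 0.19. These and Top2a passed with the GC and length offsets, at 0.83 for Smc4 (adjusted p = 0.0176, edgeR), 0.72 for Smc2 (adjusted p = 0.0332) and 0.71 for Top2a (adjusted p = 0.0376). Ncaph, the kleisin of condensin I, measured 0.26 ± 0.21 and Ncapg, another of its HEAT-repeat subunits, -0.17 ± 0.21. The separation of Ncaph was narrow, with MIZ1KO replicate 3 at 45.85 CPM and Control replicate 3 at 45.8 CPM.

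**Figure D4:**
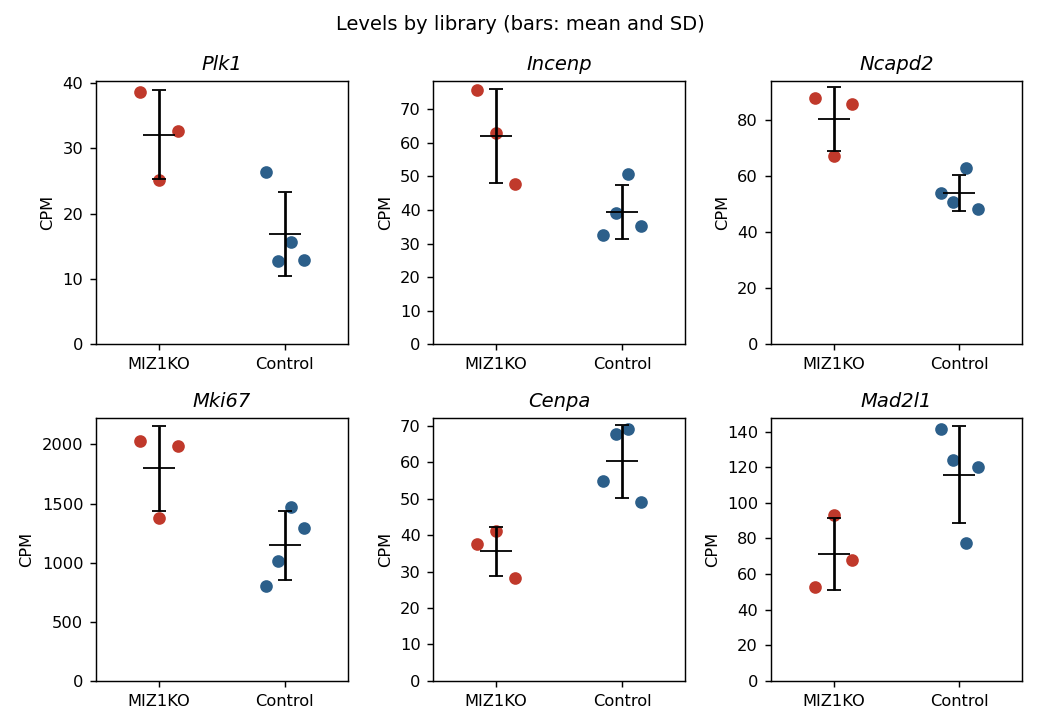
CPM in each library for the 6 genes named in full that had the smallest p or the highest level: points are libraries (MIZ1KO left, n = 3; Control right, n = 4) and bars the mean and SD. Ncapd2 and Cenpa do not overlap between groups, and the other 4 overlap through 1 or 2 libraries.

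Tpx2, which activates Aurka at the spindle, had 76.8, 61.7 and 65.0 CPM in MIZ1KO and 60.2, 43.7, 35.7 and 48.3 CPM in Control, a change of 0.53 ± 0.22 (adjusted p = 0.140, edgeR) with no overlap. It passed without Control replicate 1 (0.67, adjusted p = 0.0454) and measured -0.03 with the TEC share as a covariate. Hmmr, a spindle microtubule protein, had 81.7, 67.0 and 61.5 CPM in MIZ1KO and 46.8, 52.3, 63.1 and 61.7 CPM in Control (0.32 ± 0.20), and Nusap1, which bundles spindle microtubules, measured -0.18 ± 0.21. The 3 midzone and cytokinesis genes lay below 0 as fitted, while with the GC and length offsets Prc1 measured 0.28 and Ect2 0.49, and Anln -0.02. Anln, an actin-binding protein of the cleavage furrow, had 37.3, 30.7 and 27.4 CPM in MIZ1KO and 42.1, 35.6, 39.2 and 35.7 CPM in Control (-0.26 ± 0.22). Prc1, which bundles midzone microtubules, had 57.2, 42.8 and 49.1 CPM in MIZ1KO and 47.6, 52.0, 52.1 and 55.7 CPM in Control (-0.06 ± 0.20), and Ect2, which activates the RhoA GTPase at the furrow, measured -0.04 ± 0.26. The values of Prc1 and Ect2 were smaller than their SE, and none of the 3 genes passed.

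Mki67 encodes the Ki-67 protein that coats mitotic chromosomes and is used to mark dividing cells. It was the highest of the 40 genes per length, at 142 CPM per kilobase, followed by Smc4 at 50.4 and Top2a at 43.8. Its levels were 2026, 1381 and 1984 CPM in MIZ1KO and 805, 1016, 1470 and 1290 CPM in Control. MIZ1KO replicate 2 lay between Control replicates 3 and 4, so the groups overlapped. The gene (ENSMUSG00000031004, chromosome 7 from 135689784 to 135716361, overlapping Gm45240) averaged 1797 ± 361 CPM in MIZ1KO and 1145 ± 294 CPM in Control, a change of 0.65 ± 0.28 (adjusted p = 0.158, edgeR). It passed with the TEC share as a covariate (1.41, adjusted p = 0.0347) and with the GC and length offsets (0.85, adjusted p = 0.0417).

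**Figure D5:**
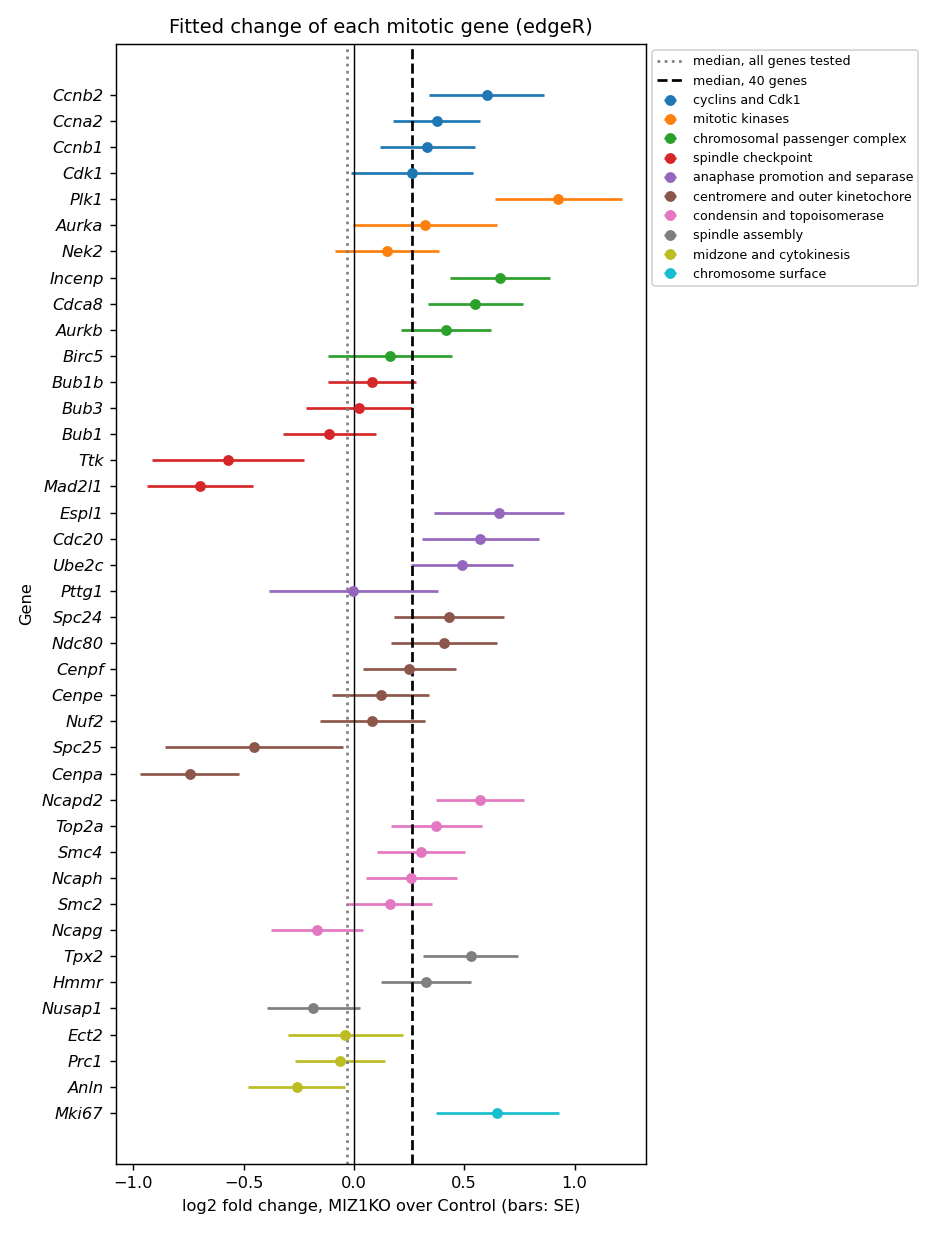
Fitted log2 fold change of MIZ1KO over Control for each of the 40 genes, coloured by role, with bars of 1 SE; the dashed line is their median of 0.26 and the dotted line the median of all genes tested, -0.03. As fitted, cyclins, kinases, passenger complex and most condensin genes lie to the right of 0 (with the TEC share as a covariate the medians of the cyclins and kinases were -0.28 and -0.03), and Cenpa, Mad2l1 and Ttk farthest to the left.

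Of 130 other mitotic genes that were tested, drawn from 7 lists, 3 rose in MIZ1KO over all genes (Cenpm, Troap and E2f4) and 0 fell by edgeR, while 17 were higher and 7 lower at an unadjusted p under 0.05. The share that rose was 2.31%, against 1.9% of all genes. The shares at an unadjusted p were 13.1% higher and 5.38% lower, against 13.6% and 10.8% of the protein-coding genes of at least 10 CPM. Their median log2 fold change was 0.06 with 73 above 0 (56.2%, against 54.1% of that class), so the 3 calls, the higher share and the share above 0 were close to the background. Cenpm, an inner kinetochore protein, had 26.8, 19.9 and 23.3 CPM in MIZ1KO and 9.31, 11.98, 8.92 and 8.02 CPM in Control, a rise of 1.299 ± 0.28 (adjusted p = 0.0171, edgeR), which ended without MIZ1KO replicate 1 (adjusted p = 0.107), without Control replicate 4 (0.0570) and with the TEC share as a covariate (0.268). It was 1 of 29 in the inner centromere and kinetochore list, whose median was -0.03 and of which it was the only one to pass. Troap, a spindle protein, had 10.3, 8.49 and 15.3 CPM in MIZ1KO and 3.28, 1.56, 3.28 and 3.81 CPM in Control, a rise of 1.85 ± 0.42 (adjusted p = 0.0194, edgeR) among 31 spindle, centrosome and cytokinesis genes with a median of 0.11. It ended without MIZ1KO replicate 1 (0.0782), MIZ1KO replicate 3 (0.0656) or Control replicate 2 (0.0584), with the GC and length offsets (0.0586) and with the TEC share (0.0982).

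E2f4 encodes the E2F protein of the DREAM complex, which binds mitotic and other cell cycle promoters in resting cells. It had 57.3, 42.6 and 56.0 CPM in MIZ1KO and 28.1, 18.2, 28.9 and 26.8 CPM in Control, a rise of 1.02 ± 0.23 (adjusted p = 0.0196, edgeR). The call ended without MIZ1KO replicate 1 (0.115), MIZ1KO replicate 3 (0.0592), Control replicate 2 (0.0670) or Control replicate 4 (0.0525), with the GC and length offsets (0.0586) and with the TEC share (0.136). The other 13 genes of the list of transcription factors of mitotic genes did not pass, and the list's median was 0.14. In the remaining lists 0 genes passed by edgeR and the members with the smallest p were Mastl among entry and exit regulators (the Greatwall kinase, -0.83 ± 0.26, adjusted p = 0.0642), Anapc2 among anaphase promoting complex subunits (0.75 ± 0.30, 0.131), Zw10 among checkpoint and corona genes (0.53 ± 0.27, 0.235) and Cdca5 among cohesin and condensin genes (0.76 ± 0.30, 0.131). At an unadjusted p under 0.05 those lists held 3, 1, 0 and 1 higher and 3, 2, 0 and 1 lower genes, that is 0 to 15.8% of each list in either direction, where all genes gave 9.92% higher and 14.7% lower. Their medians were 0.11 over 19 tested, 0.09 over 13, 0.24 over 7 and 0.02 over 17.

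DNA replication genes, the step before mitosis, centred near 0 with a median of 0.05 over 18 genes, 1 called higher and 1 lower. Of the 18, 9 lay above 0 and 9 below. Every MIZ1KO library lay above every Control library in 5 of the 18 and below in 1, against 8.74% and 10.8% of all genes. The 5 were Mcm2, Mcm3, Mcm4, Mcm5 and Mcm7, with changes from 0.39 to 0.82, and the 1 below was Tk1. At an unadjusted p under 0.05, 4 were higher and 1 lower, against 9.92% and 14.7% of all genes. Separation with MIZ1KO above was thus not particular to the 40 mitotic genes. Mcm5, a subunit of the replicative helicase, rose by 0.82 ± 0.19 (adjusted p = 0.0220, edgeR) and Tk1, the thymidine kinase, fell by 0.82 (adjusted p = 0.0455). The Mcm5 call ended with the TEC share (adjusted p = 0.192), the replicate block (0.0602) and without MIZ1KO replicate 1 or 3 or Control replicate 2 or 4 (0.0694 to 0.118). The Tk1 call ended without any one of 6 libraries, all but Control replicate 1 (0.0501 to 0.178), and under several other settings. Dark zone markers, 4 of which are among the 40 genes, summed to 566 to 670 CPM in MIZ1KO and 466 to 692 CPM in Control, with 0 of 9 called by edgeR and 2 higher at an unadjusted p under 0.05, both of them mitotic. The dark zone genes outside mitosis did not pass, among them Cxcr4, the receptor that places cells in the dark zone (-0.14 ± 0.26) and Foxo1 (0.01 ± 0.19).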

How the data were processed

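The authors deposited expected counts, estimated reads per gene without normalization, and a table of log2 values whose name speaks of variance stabilisation. Per the submitters' processing notes, STAR 2.5.2, RSEM 1.3.0, DESeq2 1.18.1, R 3.4.3 and GRCm38 were used, with no role or order given; strand setting and annotation release are not given. Of the values 6.61% were not whole, and counts were rounded. GENCODE vM21 (GRCm38) supplied symbols, lengths and GC content; 48435 identifiers matched a symbol.

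Genes passing filterByExpr (11618) were scaled by TMM and tested by edgeR 4.0.16 (R 4.3.3) with its robust, non-legacy quasi-likelihood fit, two-sided, Benjamini-Hochberg adjusted over all of them, with a call at an adjusted p under 0.05. SEs were derived from the fold change and F. CPM uses TMM-scaled totals, which include ribosomal RNA. Alternatives changed the scaling, the filter, the fit, the genes kept and the covariates (log2 TEC share, replicate block), or left out each library; they used limma 3.58.1, DESeq2 1.42.0 and, for GC content and length, smooths from mgcv. The edgeR step was tested on simulated data. No 2 libraries of a group agreed within sampling noise (lowest chi-square per degree of freedom 14.7).

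The 40 genes and the lists were chosen with earlier results of these data known. Values are given in full for the 2 genes of each role with the smallest p, and for the highest and lowest gene per length. Of each other list the genes that passed are named, or else the 1 with the smallest p. Dark zone genes outside mitosis, the other members, and marker and DNA replication genes named for their separation were named after their values were seen.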

Additional observations from a re-analysis of the deposited data

Results flagged for a closer look

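Single Control libraries stood far from the other 3 in 4 of 42 quantities examined, where chance flags about 1 in 20. Bub1b was at 40.8 CPM in Control replicate 4, against 47.9 to 49.2 CPM in the others. Ube2c was at 35.7 CPM in Control replicate 3, against 66.4 to 72.4 CPM. Ndc80 was at 29.8 CPM in Control replicate 1, against 22.9 to 23.6 CPM, and Pttg1 at 15.3 CPM in Control replicate 4, against 6.07 to 7.48 CPM. The library differed between the 4 genes, apart from replicate 4 in 2 of them.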

How the results depend on the processing

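Over 19 alternatives the 40 genes kept a positive median, between 0.19 and 0.38, except with the TEC share as a covariate (-0.0215). Calls among them, 0 as fitted, were 1 higher and 1 lower with DESeq2, 1 higher with ribosomal RNA genes left out (2.5%, against 2.56% of all genes in that fit), 6 higher with the GC and length offsets, and 1 higher with the TEC share. When single libraries were left out, the calls ran from 0 to 3 higher and from 0 to 1 lower, and the median from 0.25 to 0.32. Without Control replicate 1, 3 were higher and 1 lower (7.5% and 2.5%, against 4.6% and 7.27% of all genes in that fit). Without Control replicate 3, 1 was higher and 1 lower (2.5% each, against 1.52% and 2.26%). Without MIZ1KO replicate 2, 1 was higher and 0 lower (2.5% and 0%, against 2.49% and 1.63%). The cause of the differences between settings was not tested. Samples share a replicate number across the groups. The correlation of the deviations of such pairs ran from 0.02 to 0.16, where all pairs between the groups ran from -0.16 to 0.16. So few pairs cannot show whether the numbers pair the samples. With the replicate block, in which Control replicate 4 has no partner, 0 of the 40 genes were called and their median was 0.27. Calls over all genes were then 131 higher and 345 lower, against 221 and 471. Calls over all genes were also 423 higher and 697 lower with DESeq2, 297 and 423 with ribosomal RNA genes left out, 127 and 215 with voom, 151 and 317 with the legacy fit, 140 and 175 over protein-coding genes, 47 and 250 with the TEC share, and between 22 and 523 higher and 17 and 827 lower without single libraries, fewest without MIZ1KO replicate 1 and most without Control replicate 1. With no filter on low counts the median of all genes was -0.14 and that of the 40 genes 0.31. Depth limits the least abundant genes: the smallest count behind a value of the 40 genes was 39.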
